A study of Homo sapiens with 9 samples.

Results

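The carcinoembryonic antigen-related cell adhesion molecules (CEACAMs) were followed in HT-29, an established human colon adenocarcinoma line, across a 5-Aza dose series. The 9 genes CEACAM1, CEACAM3, CEACAM4, CEACAM5, CEACAM6, CEACAM7, CEACAM8, CEACAM19 and CEACAM21 were taken by symbol, and all 9 were found among the 23284 gene symbols of the RNA-Seq files. 5-Aza is 5-aza-deoxy-cytidine, a cytidine analogue that is built into DNA and traps DNA methyltransferases, so that methylation is lost as cells divide. HT-29 cultures received 5-Aza at 5 µM or 10 µM for 5 days, or at 0 µM (the DMSO vehicle), with 3 biological replicates per dose and 9 cultures in all. RNA was sequenced as paired ends, and the values below are FPKM (the fragment count of a gene divided by the length of its transcript and by the size of the library). HT-29 is a single tumour line and RNA was measured in bulk, so that fewer cells carrying a transcript and less transcript per cell cannot be told apart.

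CEACAMs are cell surface glycoproteins of the immunoglobulin superfamily that bind one another between neighbouring cells and are used as docking sites by several bacteria. CEACAM5 (carcinoembryonic antigen, CEA, the serum marker used to follow colorectal cancer), CEACAM6, CEACAM7 and CEACAM8 are held in the membrane by a glycosylphosphatidylinositol (GPI) anchor, whereas CEACAM1, CEACAM3, CEACAM4, CEACAM19 and CEACAM21 cross it. In the colon CEACAM1, CEACAM5, CEACAM6 and CEACAM7 are made by the epithelium, while CEACAM3, CEACAM4 and CEACAM8 are known from granulocytes.

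All 9 genes lie on the long arm of chromosome 19, over 3132 kb of the GRCh37 assembly. In map order they are CEACAM21 (chr19:42055886-42093197, plus strand), CEACAM4 (chr19:42125388-42133442, minus), CEACAM7 (chr19:42177231-42210895, minus), CEACAM5 (chr19:42212504-42234353, plus), CEACAM6 (chr19:42254885-42276116, plus) and CEACAM3 (chr19:42300519-42315592, plus). CEACAM1 (chr19:43011456-43065386, minus) and CEACAM8 (chr19:43084395-43099207, minus) form a second group, and CEACAM19 (chr19:45165545-45187631, plus) lies farthest from the rest. CEACAM7 and CEACAM5 point away from each other, with 1609 nucleotides between their annotated ends and 20.3 kb between their main transcription starts. CEACAM5 and CEACAM6 follow each other on the same strand, with starts 46.9 kb apart.

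The promoter windows of the 4 colon epithelial members are shown because the drug lowers DNA methylation at CpG dinucleotides, which are the capitals in the sequences. Each window runs from 250 bases before to 50 bases after the RefSeq transcription start, 5′ to 3′ on the strand of the gene. On the GRCh38.p14 assembly they are chr19:41708376-41708675 (plus) for CEACAM5, chr19:41755280-41755579 (plus) for CEACAM6, chr19:41688221-41688520 (minus) for CEACAM7 and chr19:42528432-42528731 (minus) for CEACAM1.
CEACAM5: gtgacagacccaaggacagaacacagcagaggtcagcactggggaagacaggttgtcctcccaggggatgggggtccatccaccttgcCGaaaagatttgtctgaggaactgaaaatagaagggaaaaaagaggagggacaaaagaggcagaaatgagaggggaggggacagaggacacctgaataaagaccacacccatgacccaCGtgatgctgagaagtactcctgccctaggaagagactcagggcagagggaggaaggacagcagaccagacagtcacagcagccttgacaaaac
CEACAM6: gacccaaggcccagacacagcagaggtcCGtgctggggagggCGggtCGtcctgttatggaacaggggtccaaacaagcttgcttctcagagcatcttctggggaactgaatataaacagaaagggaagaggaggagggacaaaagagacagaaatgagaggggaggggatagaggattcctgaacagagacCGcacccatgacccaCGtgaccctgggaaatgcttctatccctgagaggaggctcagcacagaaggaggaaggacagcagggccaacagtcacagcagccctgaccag
CEACAM7: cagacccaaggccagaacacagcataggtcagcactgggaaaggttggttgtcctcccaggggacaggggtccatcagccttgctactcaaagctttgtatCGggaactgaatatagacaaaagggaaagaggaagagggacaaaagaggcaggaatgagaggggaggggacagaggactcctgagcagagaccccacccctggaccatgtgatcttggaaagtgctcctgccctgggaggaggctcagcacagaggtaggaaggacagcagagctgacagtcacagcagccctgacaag
CEACAM1: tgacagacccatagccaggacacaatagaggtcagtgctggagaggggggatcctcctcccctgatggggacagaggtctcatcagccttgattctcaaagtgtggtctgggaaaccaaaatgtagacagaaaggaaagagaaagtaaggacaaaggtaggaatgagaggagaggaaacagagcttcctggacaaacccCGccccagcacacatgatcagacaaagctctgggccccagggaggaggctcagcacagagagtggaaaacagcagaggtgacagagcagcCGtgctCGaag

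These windows held few CpG. CEACAM7 had 1, CEACAM5 had 2, CEACAM1 had 3 and CEACAM6 had 5, where the median of all 34943 RefSeq windows of the same 300 bases was 14. Only 3.98% of all windows had fewer CpG than that of CEACAM7, and 29.7% had fewer than that of CEACAM6. The remaining windows found held 1 CpG (CEACAM3), 3 (CEACAM8) and 4 (CEACAM4, and each of 2 windows of CEACAM21). The table used held no window for CEACAM19, so that 8 of the 9 members were covered. No methylation was measured, and a CpG in a sequence is not a methylated one.

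**Figure D1:**
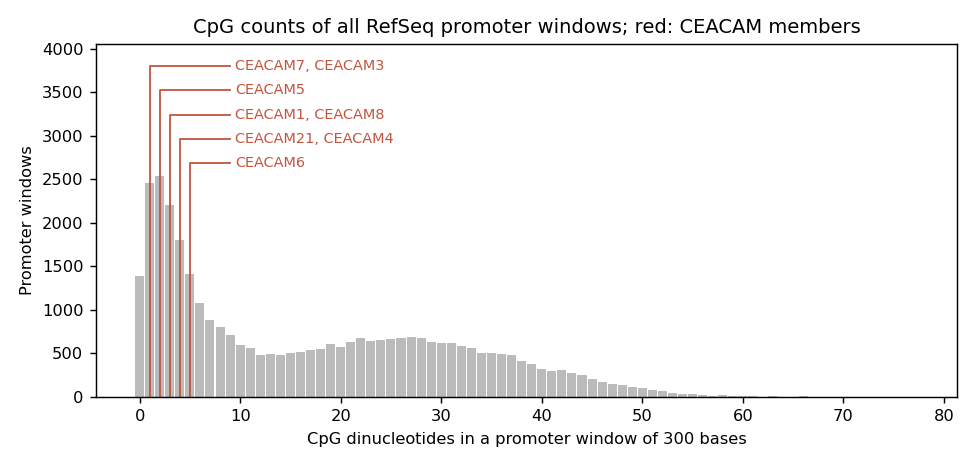
Histogram of the number of CpG dinucleotides (x axis) in RefSeq promoter windows of 300 bases, with the number of windows on the y axis, and red lines at the counts of the CEACAM members. The members sit between 1 and 5 CpG, at the low end of a distribution with a median of 14.

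The windows also resembled one another. Aligned end to end, that of CEACAM7 shared 81.4% of the aligned positions with CEACAM5 and 81.2% with CEACAM6, and CEACAM5 and CEACAM6 shared 75.9%. The window of CEACAM1 was 73.4% identical to that of CEACAM7, 68.7% to that of CEACAM6 and 67.1% to that of CEACAM5. An E-box with the letters CACGTG, which reads the same on both strands, was found in CEACAM5 at position -46 and in CEACAM6 at -45 from the start, and in no other member window. That motif occurred in 7.23% of all windows. The letters GGGCGG, a GC box searched on both strands, were present in CEACAM6 at -211, CEACAM1 at -52, CEACAM8 at -50 and both CEACAM21 windows, and in 44.9% of all windows. Such a match describes letters and not a bound site.

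Untreated HT-29 cells already carried CEACAM1, CEACAM6, CEACAM5 and CEACAM19 above the median level of all symbols above 0. In the controls that median was 69444 to 78724 FPKM. CEACAM1 was listed at 492800, 510786 and 504390 FPKM in the 3 control replicates (mean 502659 ± 9117, SD, n = 3), and CEACAM6 at 432914, 519937 and 481606 FPKM (478152 ± 43614). The controls of these genes overlapped, with CEACAM1 above CEACAM6 in 2 of 3 libraries. CEACAM5 followed at 177026, 216821 and 181217 FPKM (191688 ± 21866). CEACAM19, a transmembrane member whose role is poorly known, came next at 112704, 106899 and 145582 FPKM (121728 ± 20861), and its highest control stayed under the lowest of CEACAM5. CEACAM7 was far lower, at 12120, 8513 and 7568 FPKM (9400 ± 2402). Over the 9 libraries CEACAM6 ranked between 809 and 2325 among the 23284 symbols, CEACAM1 between 1760 and 3132, CEACAM5 between 1287 and 5270, CEACAM19 between 3518 and 7289 and CEACAM7 between 10641 and 12728.

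The granulocyte members were at or near 0. CEACAM4 was listed at 0 in all 9 libraries. CEACAM3 was listed at 0 in all 3 controls, at 1352, 356 and 0 FPKM at 5 µM and at 0, 0 and 956 FPKM at 10 µM. CEACAM8 was listed at 0, 725 and 342 FPKM in the controls, at 1213, 1490 and 709 at 5 µM and at 574, 545 and 2787 at 10 µM. For CEACAM3 these values corresponded to an estimated 4 and 1 fragments at 5 µM and 2 at 10 µM, and for CEACAM8 to at most 12.9 fragments in a library. CEACAM21 was above 0 in a single library, 5 µM replicate 3, at 778 FPKM or an estimated 3.08 fragments. None of these members passed the test in any comparison (adjusted p from 0.122 upward), although CEACAM3 passed at 5 µM vs. 0 µM without 5 µM replicate 3 (adjusted p = 0.00491). Counting error at so few fragments is not modelled by this test. The 5 members above 0 in every library rested on at least 33 estimated fragments each, so that they carry the comparisons that follow.

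**Figure D2:**
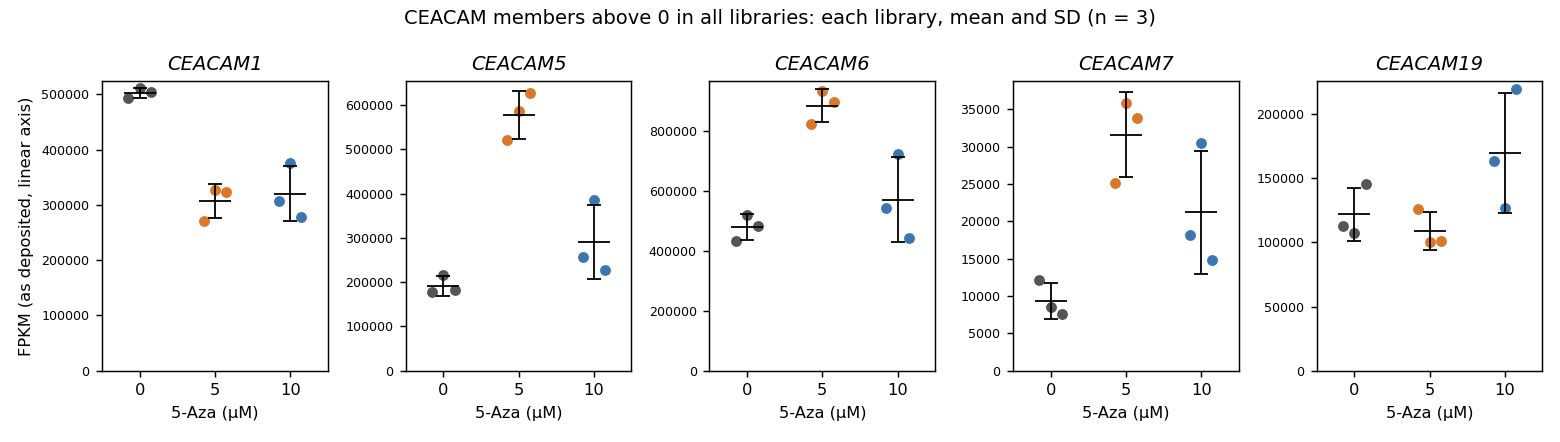
FPKM on linear axes starting at 0 (y axis) against 5-Aza dose in µM (x axis) for the 5 members above 0 in all libraries, with each point a library and the bars the mean and SD of 3 replicates. CEACAM5, CEACAM6 and CEACAM7 are highest at 5 µM, CEACAM1 is lower at both doses than at 0 µM, and the 10 µM replicates spread more widely than the controls for each of these 5 genes.

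At 5 µM vs. 0 µM the GPI-anchored epithelial members rose and CEACAM1 fell. CEACAM5 reached 519966, 585474 and 626365 FPKM (577268 ± 53672), CEACAM6 reached 822074, 932310 and 895785 FPKM (883390 ± 56154), and CEACAM7 reached 25192, 35830 and 33824 FPKM (31615 ± 5652). For each of these genes the lowest treated library lay above the highest control. With 3 against 3 libraries such a separation gives an exact permutation p of 0.1 at best, and its share over all genes was not counted. CEACAM5 rose 3.02-fold, a log2 change of 1.59 on the log2(FPKM + 1) scale used for all fold changes here (SE 0.11, 95% confidence interval 1.33 to 1.86, limma adjusted p = 0.000288). CEACAM7 rose 3.39-fold (log2 1.76, SE 0.24, interval 1.18 to 2.34, adjusted p = 0.0021). CEACAM6 rose 1.85-fold (log2 0.89, SE 0.09, interval 0.67 to 1.11, adjusted p = 0.00086), short of the 2-fold limit.

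CEACAM1, which carries inhibitory motifs in the tail of its long isoform, went the other way. Its values at 5 µM were 270633, 326263 and 323582 FPKM (306826 ± 31373), all below every control. The level was 0.608 of the control (log2 -0.72, SE 0.09, interval -0.93 to -0.51, adjusted p = 0.00145). CEACAM19 at 126061, 99975 and 101134 FPKM (109057 ± 14738) overlapped its controls and did not pass (log2 -0.15, SE 0.15, interval -0.52 to 0.21, adjusted p = 0.436), and the sign of that value changed under upper-quartile scaling, to 0.19.

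Counted by the adjusted p of at most 0.05 alone, 3 of the 8 members tested were up and 1 was down, beside 21.3% up and 17.7% down of the 20051 genes tested. With the 2-fold limit added, 2 members were up (CEACAM5 and CEACAM7) and 0 were down, beside 14.1% up and 2.17% down of all genes. The median log2 change over the 8 tested members was 1.68, beside 0.14 over all genes tested, but it includes CEACAM3, CEACAM8 and CEACAM21, whose values depend on the pseudocount because some or all controls are at 0. Among the 5 members above 0 in every library the middle value was that of CEACAM6, 0.89. The same 4 members passed the adjusted p in the fits under median-of-ratios and upper-quartile scaling, with the same signs.

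**Figure D3:**
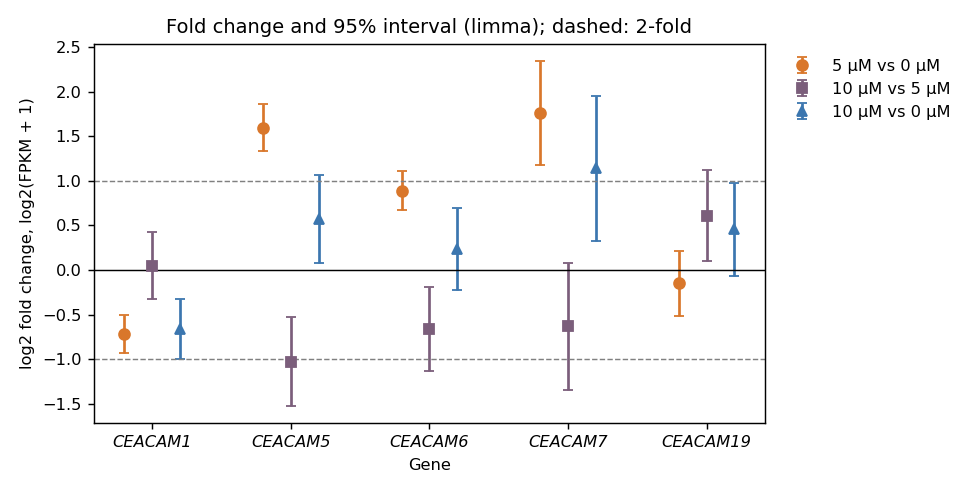
Log2 fold change of log2(FPKM + 1) (y axis) for 5 members (x axis) in the 3 comparisons, with bars for the 95% confidence interval of the limma fit on 3 against 3 libraries and dashed lines at 2-fold. At 5 µM vs. 0 µM CEACAM5 (1.59) and CEACAM7 (1.76) lie wholly above the upper dashed line and CEACAM1 (-0.72) lies below 0, whereas at 10 µM vs. 5 µM CEACAM5 (-1.03) sits at the lower dashed line.

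The higher dose did not extend these changes. At 10 µM CEACAM5 was listed at 257149, 385018 and 228307 FPKM (290158 ± 83407), below every 5 µM library and above every control. Against 5 µM it fell to 0.491 of the level (log2 -1.03, SE 0.21, interval -1.52 to -0.53, limma adjusted p = 0.0357). That call rested on the settings. In the fits that left out a single library the adjusted p was 0.108 without 5 µM replicate 1, 0.153 without replicate 2, 0.19 without replicate 3, 0.08 without 10 µM replicate 1 and 0.0857 without replicate 3, and only the fit without 10 µM replicate 2 kept it. Genes above 0 in these 6 libraries had themselves a median log2 change of -0.24 in this comparison, and after median-of-ratios scaling, which removed most of that shift, the change of CEACAM5 was -0.82 (adjusted p = 0.0157), within 2-fold.

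CEACAM6 at 543445, 722881 and 442523 FPKM (569616 ± 141999) also lay below all 5 µM libraries, but did not pass against them (log2 -0.66, SE 0.20, interval -1.13 to -0.19, adjusted p = 0.105). It passed under upper-quartile scaling (adjusted p = 0.0302), in a joint fit of the 9 libraries (0.0491) and without 10 µM replicate 2 (0.0141). CEACAM7 at 18206, 30539 and 14893 FPKM (21212 ± 8245) overlapped the 5 µM values (log2 -0.63, SE 0.30, interval -1.34 to 0.08, adjusted p = 0.241), except that it passed without 10 µM replicate 2 (0.0364). In each of these 3 genes 10 µM replicate 2 was the highest of its group, and its value was closest to the 5 µM level. CEACAM1 at 306312, 375036 and 278554 FPKM (319967 ± 49669) was indistinguishable from 5 µM in this test, with a log2 difference of 0.05 and an interval from -0.32 to 0.42 (adjusted p = 0.845). CEACAM19 was at 163449, 126543 and 219334 FPKM (169775 ± 46718), above all 5 µM libraries by a narrow gap, and did not pass (log2 0.61, SE 0.22, adjusted p = 0.15), except without 10 µM replicate 2 (0.029). Of the 8 members tested, 0 were up and 1 was down by the adjusted p, beside 0.319% up and 5.85% down of the 20085 genes tested. With the 2-fold limit the counts were again 0 up and 1 down, beside 0.129% and 4.82%.

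At 10 µM vs. 0 µM, a comparison that shares its libraries with both others, CEACAM1 was the member that passed. It fell to 0.632 of the control (log2 -0.66, SE 0.14, interval -1.0 to -0.33, adjusted p = 0.0269), and all 3 treated libraries lay below all 3 controls. This call was lost in 5 of the 6 fits that left out a library (adjusted p 0.0692 to 0.121), the exception being the fit without 10 µM replicate 2 (0.00488), and under upper-quartile scaling (log2 -0.26, adjusted p = 0.102). CEACAM5 stood 1.48-fold above the control with no overlap but did not pass (log2 0.57, SE 0.21, interval 0.08 to 1.06, adjusted p = 0.101). CEACAM7 was 2.2-fold above it, likewise without overlap (log2 1.14, SE 0.35, interval 0.32 to 1.95, adjusted p = 0.0649). The share of all genes without overlap was not counted here either. CEACAM6 (log2 0.23, adjusted p = 0.443) and CEACAM19 (log2 0.46, adjusted p = 0.185, and 0.0483 without 10 µM replicate 2) overlapped their controls.

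The scale mattered most in this comparison. As deposited, genes above 0 in the 6 libraries had a median log2 change of -0.23, and 771 genes were called up and 644 down (54.5% up). With median-of-ratios scaling the median was 0.01 and the calls were 1125 up and 284 down (79.8% up), and with upper-quartile scaling they were 1433 up and 154 down (90.3% up). Under these scalings CEACAM7 was called up (log2 1.38, adjusted p = 0.0189, and 1.54, adjusted p = 0.0128) and CEACAM5 passed the adjusted p within 2-fold (0.81, adjusted p = 0.011, and 0.97, adjusted p = 0.00638). CEACAM6 passed under upper-quartile scaling (0.63, adjusted p = 0.0245) and not under median-of-ratios scaling (0.47, adjusted p = 0.054). As deposited, 0 of the 7 members tested were up and 1 was down by the adjusted p, beside 5.39% up and 9.71% down of the 18928 genes tested. With the 2-fold limit the counts were 0 and 0, beside 4.07% up and 3.4% down.

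Ratios between members within a library do not depend on how libraries were scaled. The CEACAM1 to CEACAM5 ratio was 2.78, 2.36 and 2.78 in the controls, 0.52, 0.557 and 0.517 at 5 µM and 1.19, 0.974 and 1.22 at 10 µM. CEACAM1 thus went from the more abundant of the pair to the less abundant at 5 µM, and the 3 doses did not overlap. On the log2 scale the ratio differed by -2.31 (SE 0.09) between 5 µM and 0 µM, by 1.08 (SE 0.11) between 10 µM and 5 µM and by -1.23 (SE 0.13) between 10 µM and 0 µM. The CEACAM1 to CEACAM6 ratio was 1.14, 0.982 and 1.05 in the controls, 0.329, 0.35 and 0.361 at 5 µM and 0.564, 0.519 and 0.629 at 10 µM, again without overlap. CEACAM5 also shifted against CEACAM6, its neighbour on the chromosome. Their ratio was 0.409, 0.417 and 0.376 at 0 µM, 0.633, 0.628 and 0.699 at 5 µM and 0.473, 0.533 and 0.516 at 10 µM.

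CEACAM5 and CEACAM7, the head-to-head pair, had an overlapping ratio at 0 µM (14.6, 25.5 and 23.9) and 5 µM (20.6, 16.3 and 18.5), a log2 difference of -0.17 (SE 0.27). At 10 µM their ratio was 14.1, 12.6 and 15.3, below every 5 µM library (log2 difference -0.40, SE 0.13). It overlapped the controls (-0.57, SE 0.27). With 3 against 3 libraries the exact permutation test (2-sided) cannot give a p below 0.1, which the ratios of CEACAM1 to CEACAM5, CEACAM1 to CEACAM6 and CEACAM5 to CEACAM6 reached in all 3 comparisons (0.136 after adjustment over the 30 ratios tested). Most of the 30 tests reached it, CEACAM1 to CEACAM7 likewise in all 3 comparisons, so that a lack of overlap was not particular to these pairs. For CEACAM5 to CEACAM7 the exact permutation p was 0.6 at 5 µM vs. 0 µM, 0.1 at 10 µM vs. 5 µM and 0.2 at 10 µM vs. 0 µM.

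**Figure D4:**
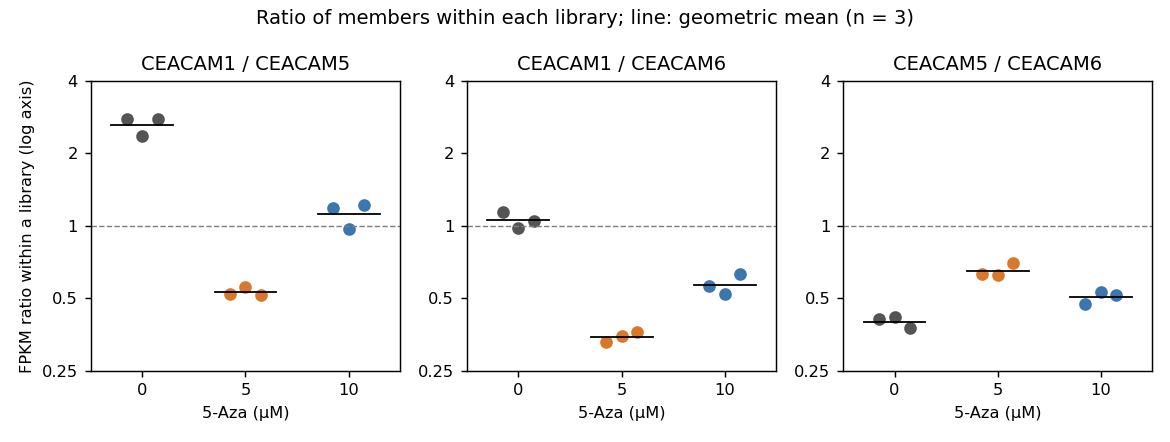
FPKM ratio of a pair of members within each library on a log axis (y axis) against 5-Aza dose in µM (x axis), with each point a library, a line at the geometric mean of 3 replicates and a dashed line at equal levels. The CEACAM1 to CEACAM5 ratio falls from between 2.36 and 2.78 at 0 µM to between 0.517 and 0.557 at 5 µM, and lies between the other doses at 10 µM.

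The makeup of the CEACAM transcript pool shifted with it. The 9 members summed to 1303983 ± 69582 FPKM at 0 µM, 1910122 ± 124388 at 5 µM and 1372350 ± 237788 at 10 µM (SD, n = 3). CEACAM1 held 38.6% ± 1.39 of that sum in the controls, 16% ± 0.624 at 5 µM and 23.4% ± 0.459 at 10 µM. CEACAM5 held 14.7% ± 1.11, 30.2% ± 1.22 and 20.9% ± 2.27, and CEACAM6 held 36.6% ± 1.44, 46.3% ± 0.958 and 41.2% ± 3.5. The controls thus had CEACAM1 and CEACAM6 as near-equal leading members, whereas at 5 µM CEACAM6 led alone and CEACAM5 came second. CEACAM19 held 9.35% ± 1.6, 5.76% ± 1.19 and 13% ± 5.38, with the widest spread at 10 µM, and CEACAM7 held 0.728% ± 0.226, 1.65% ± 0.198 and 1.51% ± 0.315.

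**Figure D5:**
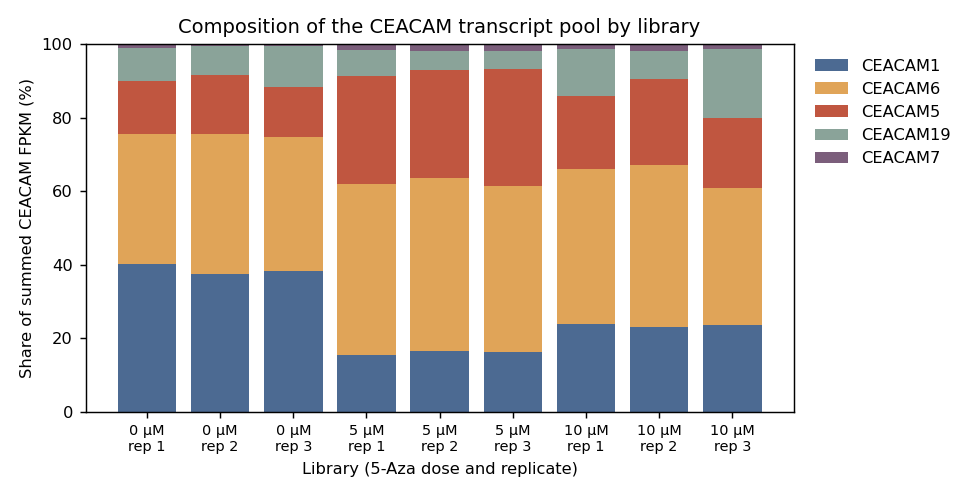
Share of the summed FPKM of the 9 members (y axis, %) in each of the 9 libraries (x axis), with stacked colours for the 5 members above 0 in all libraries. CEACAM1 takes 37.5% to 40.1% in the controls, 15.3% to 16.5% at 5 µM and 22.9% to 23.8% at 10 µM, while CEACAM5 takes 13.7% to 15.9%, 29.4% to 31.6% and 19.2% to 23.5%.

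Members are highly similar over parts of their coding sequence, and Cufflinks can divide reads that match several of them, so that the split between CEACAM5, CEACAM6, CEACAM7 and CEACAM1 carries an uncertainty that the replicate spread does not show. CEACAM19 overlaps PVR (the poliovirus receptor) on the same strand. PVR was at 1802710, 1773650 and 1715670 FPKM in the controls and at 1070110, 1101840 and 1209920 FPKM at 5 µM, and fell (log2 -0.65, adjusted p = 0.00123), and the part of reads from the overlap in the CEACAM19 values was not tested. CEACAM1 and CEACAM8 overlap an antisense transcript, LIPE-AS1. Annotated genes on the opposite strand also overlap CEACAM6 (ENSG00000268833), CEACAM19 (CEACAM16-AS1) and CEACAM21 (ENSG00000280014). How strand was treated in the quantification was not given in the sources used here. CEACAM5 and CEACAM6 both overlap ENSG00000267881, annotated as a protein-coding gene on the same strand. CEACAM1 also overlaps the pseudogene CEACAMP2 on its own strand. Of the overlapping genes named here PVR alone was among the symbols of the data, and the part of reads from these overlaps was not tested.

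Across the 9 libraries the log2 levels of CEACAM5 and CEACAM6 had a Pearson r of 0.98, those of CEACAM5 and CEACAM7 one of 0.91 and those of CEACAM1 and CEACAM5 one of -0.62. These values are given as a description, since the libraries fall into 3 dose groups. Among 15278 genes above 0 in all libraries, the genes closest to CEACAM5 were GPC4 (r = 0.997), a GPI-anchored glypican, TP53INP2 (0.988), RBP4 (0.986), E2F7 (0.986) and CD68 (0.985). For CEACAM6 they were MASTL (0.985), B4GALNT1 (0.979), ETV1 (0.978), HAUS6 (0.978) and CEACAM5 itself (0.977). For CEACAM1 they were POF1B (0.995), ACSL5 (0.994), PRSS12 (0.994), ZZZ3 (0.994) and CDC42BPA (0.993).

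A further 4 CEACAM genes of the same chromosome arm were in the files. By the adjusted p 2 of them rose at 5 µM, beside 21.3% of all genes, 1 of these on few fragments and from controls at 0. CEACAM16, a secreted member known from the inner ear, was at 516, 341 and 1207 FPKM in the controls, 10288, 5864 and 9016 at 5 µM and 4462, 3081 and 2727 at 10 µM. It rose at 5 µM vs. 0 µM (log2 3.77, SE 0.56, adjusted p = 0.00301) and at 10 µM vs. 0 µM (log2 2.49, SE 0.65, adjusted p = 0.0447), on an estimated 1 to 5 fragments in the controls and 26 to 48 at 5 µM. CEACAM20 was listed at 0 in the controls and at 1236, 1561 and 231 FPKM at 5 µM, an estimated 6.81, 8.18 and 1.36 fragments. It passed (limma adjusted p = 0.00153), but it entered the test only through its 5 µM values. Controls that are all at 0 add no spread, so that this p does not measure counting error. The pseudogene CEACAM22P did not pass at 5 µM vs. 0 µM (0 to 721 FPKM in the controls, 3957 to 5949 at 5 µM, adjusted p = 0.109), nor did CEACAM18 (5426 to 14666 FPKM in 8 of the 9 libraries and 4555 in 10 µM replicate 3, adjusted p = 0.273). The pregnancy-specific glycoproteins, placental relatives encoded beside CEACAM8, stayed near 0, with summed levels of at most 1344 FPKM in a library. Of their 11 genes, 10 were tested at 5 µM vs. 0 µM and 0 passed, beside 21.3% up and 17.7% down of all genes.

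Next to CEACAM1 on the centromeric side, 64358 nucleotides away, lies CXCL17, a mucosal chemokine. It was at 3577, 4737 and 6142 FPKM in the controls, 260692, 324930 and 309932 at 5 µM and 66602, 103287 and 63757 at 10 µM. CXCL17 rose 63.2-fold at 5 µM vs. 0 µM (log2 5.98, SE 0.21, adjusted p = 9.14e-05) and fell at 10 µM vs. 5 µM (log2 -1.97, SE 0.21, adjusted p = 0.00485), in the opposite direction to CEACAM1 at 5 µM. Beside CEACAM19, CEACAM16 rose and the overlapping PVR fell, as given above. The neighbours LYPD4 beside CEACAM3, PSG3 beside CEACAM8 and IGSF23 beside CEACAM19 did not pass in the comparisons in which they were tested, and IGSF23 was at 2949, 13022 and 12891 FPKM in the controls and 26564, 24944 and 21011 at 5 µM (adjusted p = 0.0747).

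Other GPI-anchored proteins of epithelial cells were mostly higher at 5 µM. Of 16 such genes tested, 11 rose and 2 fell by the adjusted p, beside 21.3% and 17.7% of all genes, and 10 were called up with the 2-fold limit, beside 14.1%. Their median log2 change was 1.77, beside 0.14 over all genes. The glypicans GPC1 (log2 1.95), GPC3 (4.34) and GPC4 (1.88), the urokinase receptor relative LYPD3 (2.96), mesothelin (MSLN, 1.89), the folate receptor FOLR1 (1.58), the complement regulator CD55 (1.04) and the alkaline phosphatases ALPP (1.65) and ALPPL2 (3.12) rose. The intestinal phosphatase ALPI was listed at 0 in the controls and at 3933, 3996 and 4691 FPKM at 5 µM (adjusted p = 0.000291). ALPI entered this test only through its 5 µM values, its controls add no spread, and the size of its change depends on the pseudocount. PLAUR (-0.60) and CD24 (-0.62) fell, and LY6E, the most abundant of the list, rose within 2-fold (0.49, adjusted p = 0.0394). Against 5 µM, 0 of the 16 rose and 5 fell at 10 µM, beside 0.319% and 5.85% of all genes tested, whose median was -0.31. ALPPL2 (-1.84), LYPD3 (-1.41) and GPC4 (-1.12) were called down, beside 4.82% of all genes. GPC4 was within 2-fold after median-of-ratios scaling (-0.92). Against 0 µM, 5 of the 16 were called up at 10 µM, beside 4.07% of all genes. They were ALPI (at 0 in the controls), LYPD3, FOLR1, MSLN and GPC1.

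The GPI transamidase attaches the anchor. As deposited, 0 of its 5 subunits rose and 2 fell at 5 µM vs. 0 µM, beside 21.3% and 17.7% of all genes. The subunits that fell were PIGT (log2 -0.31, adjusted p = 0.0117) and PIGU (-0.41, adjusted p = 0.0168). Under upper-quartile scaling 3 of the 5 were higher by the adjusted p and 0 were lower, and PIGT was at 0.04. In the comparisons with 10 µM as deposited 0 of the 5 passed. Of all genes, 0.319% rose and 5.85% fell against 5 µM, and 5.39% rose and 9.71% fell against 0 µM. Of 15 adhesion molecules of other families, 2 rose, CDH17 (0.62) and ICAM1 (0.72), and 7 fell, beside 21.3% and 17.7% of all genes. Of these, the integrin subunits ITGB4 (-1.10) and ITGA2 (-1.01) were called. EPCAM, the most abundant, did not pass (-0.23, adjusted p = 0.197). Under upper-quartile scaling the counts were 5 up and 5 down. Against 0 µM, 0 of the 15 rose at 10 µM and 5 fell, beside 5.39% and 9.71% of all genes. ITGA6 (-1.0) and ITGA2 (-1.20) were called down, beside 3.4% of all genes. Both calls were within 2-fold under median-of-ratios scaling (1 up and 6 down by the adjusted p) and upper-quartile scaling (1 up and 2 down). At 10 µM vs. 5 µM 0 passed, beside 0.319% up and 5.85% down of all genes.

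Partners that bind or signal through CEACAMs moved both ways. Of 13 tested at 5 µM vs. 0 µM, 4 rose and 7 fell, beside 21.3% and 17.7% of all genes, with a median log2 change of -0.34 beside 0.14. LYN, a SRC-family kinase, was called up (2553, 2304 and 2624 FPKM in the controls, 5247, 7323 and 5419 at 5 µM, log2 1.25, adjusted p = 0.0141). Of the phosphatases recruited by the CEACAM1 tail, PTPN6 rose within 2-fold (0.43, adjusted p = 0.0102) and PTPN11 fell (-0.44, adjusted p = 0.0408). SRC (-0.62), EGFR (-0.73) and ANXA2 (-0.97), the most abundant of the list, fell. Under upper-quartile scaling 4 were up and 3 down. In the 10 µM cultures 4 fell and 0 rose against 0 µM, beside 9.71% and 5.39% of all genes. ANXA2 (-1.21) and EGFR (-1.16) were called down, beside 3.4% of all genes. Neither was called under the other scalings, where 1 was up and 6 down by the adjusted p (median-of-ratios) or 2 up and 2 down (upper quartile). In the comparison of 10 µM with 5 µM 0 passed, beside 0.319% up and 5.85% down of all genes.

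The transcription factors described at CEACAM promoters numbered 5, among them the E-box binders USF1 and USF2 and the GC box binders SP1 and SP3. At 5 µM vs. 0 µM 0 rose and 3 fell, beside 21.3% up and 17.7% down of all genes. Those that fell were SP1 (log2 -0.63, adjusted p = 0.000669), USF2 (-0.47, adjusted p = 0.00919) and SP3 (-0.35, adjusted p = 0.0328), while USF1 (-0.11) and IRF1 (0.06) did not pass. Under upper-quartile scaling 1 rose and 1 fell, the latter SP1 (-0.28). SP1 also fell at 10 µM vs. 0 µM (-0.75, adjusted p = 0.0246), where 9.71% of all genes fell. At 10 µM vs. 5 µM 0 of the 5 passed, beside 0.319% up and 5.85% down of all genes.

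The identity of the cells was read from marker genes. All 10 colon epithelium markers were above 0 in the libraries at each dose, with summed levels of 90082986 to 108341137 FPKM at 0 µM, 37172036 to 41765038 at 5 µM and 29356681 to 51690034 at 10 µM. At 5 µM vs. 0 µM 7 of the 10 fell and 1 rose by the adjusted p, beside 17.7% and 21.3% of all genes, with a median log2 change of -0.60. KRT8, KRT18 and KRT19 were called down and CDX1 up, and KRT20, VIL1, CDX2 and LGALS4 fell within 2-fold. Against 0 µM, 3 of the 10 were called down at 10 µM (KRT19, KRT20 and CDX2) and 0 up, beside 3.4% and 4.07% of all genes. The 6 granulocyte markers summed to 336 to 1225 FPKM at 0 µM, 4772 to 7411 at 5 µM and 432 to 1693 at 10 µM. Of these, CEBPE was at 0 in all libraries, and ELANE and FCGR3B were at 0 at 0 µM and 10 µM. By the adjusted p 3 of the 5 tested rose at 5 µM vs. 0 µM, beside 21.3% of all genes. Their values were low, with ELANE at 1338, 1408 and 417 FPKM and FCGR3B at 658, 519 and 681 at 5 µM. ELANE and FCGR3B entered this test only through their 5 µM values. Controls at 0 add no spread, and counting error is not modelled. The 5 µM libraries were also the deepest by estimate (relative depth 2.29 to 2.57, controls 1.00 to 2.14), and the part of depth was not tested. Fibroblast markers (22549 to 32355, 82215 to 88739 and 44805 to 52149 FPKM) and endothelium markers (1901 to 5031, 9843 to 12404 and 3267 to 3588 FPKM) were also highest at 5 µM. At 5 µM vs. 0 µM 4 of 6 and 3 of 4 rose, beside 21.3% of all genes. Among those that rose, COL1A2 (488 to 834 FPKM at 5 µM) and CDH5 (151 to 405) were also low, whereas COL1A1 (30990 to 44478) was not. CDH5 was at 0 in all 3 controls and entered this test only through its 5 µM values. Leukocyte markers summed to 8567582 to 8816083 FPKM at 0 µM, 3905613 to 4782400 at 5 µM and 4533415 to 6540447 at 10 µM. They were dominated by LYZ, a lysozyme also made by intestinal epithelium, which fell at 5 µM vs. 0 µM (log2 -0.99, adjusted p = 0.00147). In that comparison 2 of the 6 rose, CD3E and ITGAM, beside 21.3% of all genes. CD3E was at 0 in all 3 controls and at 732, 770 and 912 FPKM at 5 µM, so that it too entered the test only through its 5 µM values. The part of these markers in the CEACAM results was not tested. The p-values above measure the spread between 3 cultures per dose.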

How the data were processed

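RNA-Seq values of 9 HT-29 cultures were used, 3 each at 0 µM, 5 µM and 10 µM 5-Aza, grouped by the sample labels. Reads were quality-filtered by the authors (FASTX-Toolkit) and mapped with TopHat on the hg19 build, and the deposited files hold the FPKM that Cufflinks then gave per gene (24934 entries, 23284 symbols). The annotation version was not given in the sources used here. Values of a library sum to between 3.69e+09 and 5.91e+09, so that an FPKM is a relative level. Because the deposited values are not counts, no count model was used. Depth was estimated from the steps of low values, in which 46 values at 12 microRNA genes of 110 nucleotides were whole multiples of a step per library within 0.01. Relative to control replicate 1, depth was 1.51 and 2.14 in the other controls. It was 2.41, 2.29 and 2.57 at 5 µM and 1.27, 2.01 and 1.70 at 10 µM. Fragments of CEACAM3, CEACAM7 and CEACAM16 were counted from whole steps of their own values. The other members above 0 and CEACAM20 were converted by annotated length. The length line was refitted to the genes within 15% of it, 506 of 723 genes with clear steps, so that this share is no check of accuracy. The estimates cover no multi-mapped weighting, and a gene listed at 0 may be a failed estimate.

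Entries of a symbol were summed (no member had several). Genes reaching 10 FPKM in any of the 6 libraries compared were tested on log2(FPKM + 1) with limma 3.58.1 in R 4.3.3 (eBayes with trend), with Benjamini-Hochberg adjustment over all genes tested. A single estimated fragment of CEACAM3 was 356 FPKM (5 µM replicate 2), so that this filter lay far below 1 fragment at that gene. The shares of all genes include genes with few fragments. A gene was said to rise or fall at an adjusted p of at most 0.05 and was called with a change over 2-fold in addition. Ratios used exact permutation tests. The scripts were tested on simulated data. Python 3.11.15, pandas 2.3.3, numpy 2.4.6, scipy 1.17.1, matplotlib 3.10.9 and Biopython 1.88 were used. Positions are from the GRCh37 annotation and promoter windows from RefSeq on GRCh38.p14.

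The members, the gene lists and the cell type markers were chosen with earlier results of these data known. Named genes are the members, other CEACAM genes and pregnancy-specific glycoproteins, list genes that were called or most abundant, protein-coding neighbours and the 5 genes closest in pattern to CEACAM1, CEACAM5 and CEACAM6. A few list genes that passed the adjusted p within 2-fold (PTPN6, PTPN11, SRC, PIGU, CDH17, ICAM1, PLAUR, CD24, VIL1, LGALS4, the promoter factors) were named after their values were seen. PVR, LIPE-AS1, ENSG00000267881, CEACAMP2 and the other genes named as overlapping members were likewise named afterwards. One listed symbol, MELTF, was not found by that name, and a value for 1 list gene is not reported here. Alternatives were other pseudocounts, filters and fold rules, limma's treat, a joint fit of all 9 libraries, a replicate block, other scalings, the largest entry of repeated symbols and each replicate left out in turn.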

Additional observations from a re-analysis of the deposited data

How the results depend on the processing

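Under the 2-fold rule 2 members were called at 5 µM vs. 0 µM. The count was 4 with no fold threshold and 1 (CEACAM5) with limma's treat, 3 with upper-quartile scaling, and 2 to 3 when a replicate was left out, the third being CEACAM3 without 5 µM replicate 3 (adjusted p = 0.00491 on at most 4 estimated fragments). At 10 µM vs. 5 µM the 1 call, CEACAM5, became 0 with no filter on low values (adjusted p = 0.105), with treat, with median-of-ratios scaling and with upper-quartile scaling (log2 -0.97), and ranged from 0 to 1 when a replicate was left out. At 10 µM vs. 0 µM the count of 0 became 1 with no fold threshold (CEACAM1) and 1 (CEACAM7) with all 9 libraries in one fit, with median-of-ratios scaling and with upper-quartile scaling, and stayed at 0 in every fit that left out a replicate.

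In the fits with a replicate block the counts were 2, 0 and 0, the lost call being CEACAM5 at 10 µM vs. 5 µM (adjusted p = 0.0607). The labels do not say whether equal replicate numbers mark shared handling. Deviations of same-numbered samples correlated at -0.07 to 0.09 (9 pairs, 15278 genes) and those of others at -0.16 to 0.10. No pairing by number was visible, but genes of low count are included, so that these values cannot exclude a weak one.

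At 5 µM vs. 0 µM the signs and the adjusted p calls of CEACAM1 (log2 -0.76 to -0.37), CEACAM5 (1.53 to 1.94), CEACAM6 (0.82 to 1.24) and CEACAM7 (1.62 to 2.11) held in all 16 alternatives other than treat, which tests against 2-fold. At 10 µM vs. 0 µM the adjusted p of CEACAM1 was at most 0.05 in 9 of these 16. The sign changed for values that had not passed. CEACAM19 at 5 µM vs. 0 µM was 0.19 with upper-quartile scaling. CEACAM1 at 10 µM vs. 5 µM was -0.03 without 5 µM replicate 1 and -0.07 without 10 µM replicate 2, in a range of -0.07 to 0.15 over the replicates left out. CEACAM8 at 10 µM vs. 5 µM was 0.02 with median-of-ratios scaling, 0.04 without 5 µM replicate 2, 0.18 without 10 µM replicate 1 and 0.22 without 10 µM replicate 2, in a range of -0.96 to 0.22. Depth limits the statements on CEACAM3, CEACAM4, CEACAM8 and CEACAM21. Where no value shows it, the cause of a changed call was not tested.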
